A study of Mus musculus with 3 samples.

Results

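TRAJ7 is a joining segment of the T cell receptor (TCR) α locus, and 305 of the 6982 thymocytes with exactly 1 productive α chain carried it (4.37%, 3.90 to 4.87). Its cells were taken from the deposited contig table as those whose only productive α contig, in a barcode of the expression matrix, was assigned to TRAJ7. The segment was chosen by its share of cells in each sorted population and its 2 most frequent CDR3 by their cell counts, so these values are given as a description, with no test. TRAJ7 (ENSMUSG00000076921.1) is annotated in GRCm38 as a TCR J gene of 59 bases on the plus strand of chromosome 14, 54211470 to 54211528, and lies 8.99 kb before the constant gene TRAC.

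The thymocytes came from 8 female mice, 7 to 12 weeks of age, that were TCliB+, TCRa+/- and Foxp3-GFP on a C56Bl/6 background (as spelled in the labels), and were pooled before the sort. All mice thus carried the same transgenic β chain, 1 intact TCRα allele and a GFP reporter of Foxp3, the transcription factor that defines regulatory T cells (Tregs). All cells were sorted as positive for surface Vα2, the product of the TRAV14 family. Each of 6 sorted populations had its own hashtag. DP denotes the double-positive stage (CD4+CD8+), and CD4 SP the later single-positive cells that lack CD25, Foxp3 and CD73. Treg progenitors (TRP) were sorted either as CD25+ or as Foxp3lo, and Tregs by whether they carried CD73, an ecto-enzyme found on mature thymic Tregs. DP cells were sorted from whole thymus and the others after depletion of CD8+ cells.

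Each population was 1 sorted sample of the same pool, so there are no replicates and populations were not tested against each other. The range printed after a share is its 95% interval (exact, Clopper-Pearson). Such intervals hold counting error alone, and sister cells of a clone are not independent. Exactly 1 productive α chain was read in 1849 CD4 SP and 1266 DP cells, in 1057 CD73+ and 223 CD73- Treg cells, and in 804 Foxp3lo and 1783 CD25+ TRP cells. These were 41.9% of the DP cells in the matrix, 75.9% of CD4 SP and 44.0% of CD73+ Treg. The matrix rows carry no gene names, so the sort could not be checked against marker genes.

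An α chain is made when a V segment is cut and joined to a J segment, with bases trimmed from both ends and others added at the junction. The junction codes for the middle of CDR3α, the loop of the chain that mostly faces the peptide. The conserved cysteine of the V segment is position 1 of the CDR3. Because the β chain is the same in these mice, the α chain sets most of the difference in specificity between their T cells. Strong recognition of self peptides in the thymus is known to favour the Treg fate.

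The sequences below show how the frequent TRAJ7 CDR3 are built from germline. The germline part of TRAV14D-3-DV8, the V copy in most TRAJ7 chains, and that of TRAJ7 are given first, as annotated in GENCODE M21. In the rearranged sequences capitals mark bases that match neither germline segment, with V matched first. These are called added bases below. V bases past the annotated end, and bases copied at a cut end, could not be told from them.
TRAV14D-3-DV8 germline: tgtgcagcaagtg
TRAJ7 germline: ggactacagcaacaacagacttactttg
CAASADYSNNRLTL, most frequent: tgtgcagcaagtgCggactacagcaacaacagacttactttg
CAASADYSNNRLTL, next: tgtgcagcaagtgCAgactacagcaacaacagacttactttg
CAASAGYSNNRLTL, most frequent: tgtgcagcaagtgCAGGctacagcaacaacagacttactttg
CAASAGYSNNRLTL, next: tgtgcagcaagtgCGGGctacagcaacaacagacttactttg
CAASSDYSNNRLTL, most frequent: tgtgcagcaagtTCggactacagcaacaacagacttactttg
CAADYSNNRLTL, most frequent: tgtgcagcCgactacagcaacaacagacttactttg
CAADYSNNRLTL, next: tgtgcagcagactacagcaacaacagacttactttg

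The 2 most frequent TRAJ7 CDR3, CAASADYSNNRLTL (the aspartate form, 104 cells) and CAASAGYSNNRLTL (the glycine form, 100 cells), differ only at position 6. Both have alanine at position 5 and keep YSNNRLTL from TRAJ7. In the aspartate form the residue at position 6 is the germline one, coded by GAC in all 104 cells. The most frequent aspartate sequence above keeps all 13 V bases and all 28 J bases around 1 added C. In the glycine form the J segment was trimmed further, to 25 or 24 bases in the sequences with 5 or more cells, and 4 or 5 bases stand between V and J.

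The shares of TRAJ7 followed this pair of CDR3, called the pair below, while the remaining TRAJ7 chains had shares whose intervals all overlap. The pair was chosen by its cell counts over all populations, and 132 of its 204 cells were CD73+ Treg. That TRAJ7 follows the pair, and that the remainder is low in CD73+ Treg, is thus largely set by this choice. The order of the TRAJ7 shares, from the highest, was CD73+ Treg (13.3%, 11.3 to 15.5), CD73- Treg (6.28%, 3.47 to 10.3), CD25+ TRP (4.49%, 3.57 to 5.55), Foxp3lo TRP (2.36%, 1.43 to 3.67), DP (1.97%, 1.28 to 2.90) and CD4 SP (1.41%, 0.921 to 2.05). These are shares of cells, and the order depends on how many cells carry each rearrangement (V gene, J gene and nucleotides). With each rearrangement counted once, TRAJ7 made up 4.88% in CD73- Treg, 2.81% in CD73+ Treg, 2.64% in CD25+ TRP, 2.04% in Foxp3lo TRP, 2.03% in DP and 1.54% in CD4 SP, so that CD73+ Treg no longer came first. Neighbours in the order by cells have overlapping intervals, apart from CD73+ and CD73- Treg, for which the order turns in this way. The turned order rests on 10 of 205 rearrangements in CD73- Treg and 22 of 784 in CD73+ Treg, without intervals. Counting once also depends on the number of cells read, 223 and 1057 here, so no difference between these populations is read from it. Outside the pair, 101 TRAJ7 cells remained. Their share was 1.79% in CD73- Treg (0.491 to 4.53), 1.74% in DP (1.09 to 2.62), 1.63% in CD25+ TRP (1.09 to 2.33), 1.41% in CD4 SP (0.921 to 2.05), 1.37% in Foxp3lo TRP (0.685 to 2.43) and 0.851% in CD73+ Treg (0.390 to 1.61).

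**Figure D1:**
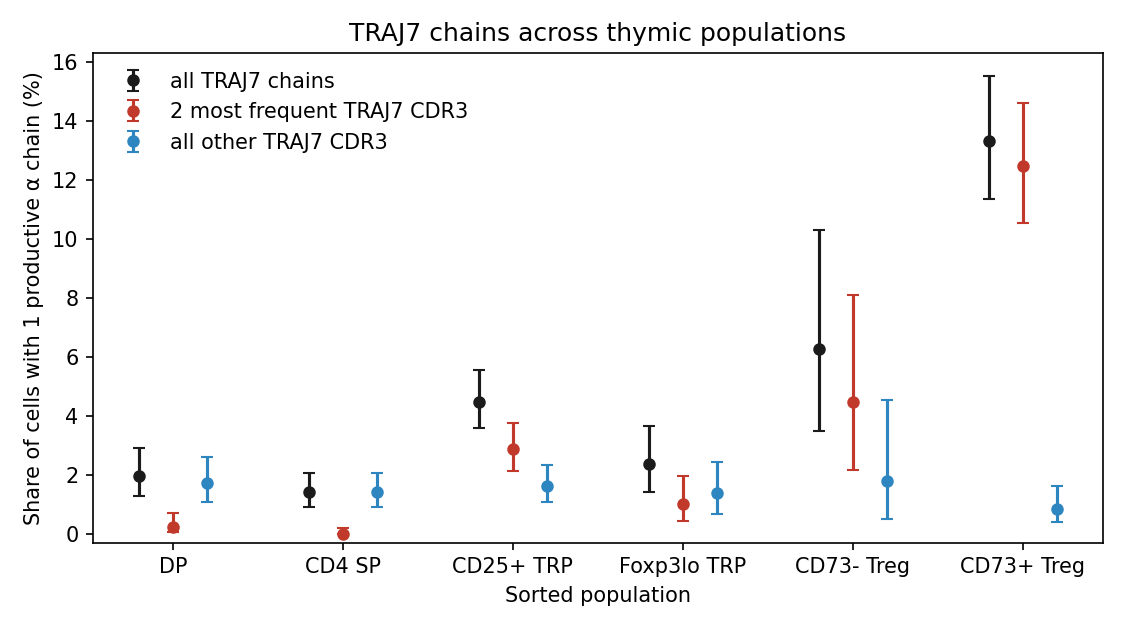
Share of cells with 1 productive α chain that carried TRAJ7 (black), either of the 2 most frequent TRAJ7 CDR3 (red) or any other TRAJ7 CDR3 (blue), in percent, by sorted population; bars are exact 95% intervals for counting error. The blue points lie between 0.851% and 1.79% in all populations, and the black points follow the red ones, up to 13.3% in CD73+ Treg. The 2 CDR3 were chosen by their cell counts, which largely sets this pattern.

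The pair was 132 of 141 TRAJ7 cells in CD73+ Treg, 10 of 14 in CD73- Treg, 51 of 80 in CD25+ TRP, 8 of 19 in Foxp3lo TRP, 3 of 25 in DP and 0 of 26 in CD4 SP. The aspartate form had more cells than the glycine form in Foxp3lo TRP and CD73- Treg, though on few cells. CD25+ TRP held 27 cells of the aspartate form and 24 of the glycine form, and CD73+ Treg held 60 and 72. Foxp3lo TRP held 7 cells of the aspartate form and 1 of the glycine form, and CD73- Treg held 8 and 2. In Foxp3lo TRP the shares were 0.871% (0.351 to 1.79) and 0.124% (0.00315 to 0.691), and in CD73- Treg 3.59% (1.56 to 6.95) and 0.897% (0.109 to 3.20). These intervals overlap within each population, but overlap alone does not place the difference within counting error. The 2 forms were not tested against each other. The pair as a whole made up 4.48% of CD73- Treg cells (2.17 to 8.09), and 2.86% (6 of 210) without the top 5% of cells by UMIs.

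The pair was made by many rearrangements. Its 204 cells carried 13 different CDR3 nucleotide sequences, 5 for the aspartate form and 8 for the glycine form, and every alanine codon was used at position 5. In the aspartate form GCG was found in 54 cells, GCA in 38, GCC in 9 and GCT in 3. In the glycine form GCA was found in 49 cells, GCG in 34, GCC in 11 and GCT in 6. The glycine at position 6 was coded by GGC in 83 cells, GGG in 16 and GGT in 1. Different nucleotide sequences come from separate joining events, apart from errors in reading a sequence. The contigs of the 11 pair sequences with 2 or more cells had a median of 22 to 30.5 UMIs (unique molecular identifiers, which count captured RNA molecules).

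The same nucleotide sequences recurred in several populations. The most frequent sequence, the aspartate form with a lone added C, was found in 32 CD73+ Treg, 13 CD25+ TRP, 5 Foxp3lo TRP, 1 CD73- Treg and 1 DP cell. The next aspartate sequence, with CA added, was found in 19 CD73+ Treg, 12 CD25+ TRP, 4 CD73- Treg, 2 Foxp3lo TRP and 1 DP cell. For the glycine form, the sequence with CAGG added was found in 30 CD73+ Treg, 9 CD25+ TRP, 1 Foxp3lo TRP and 1 CD73- Treg cell. Of the 13 pair sequences, 10 were found in CD25+ TRP, 12 in CD73+ Treg and 9 in both, which is 9 of 10 and 9 of 12. No such share over all TRAJ segments stands beside this count. The pair was chosen for its many cells, which by itself makes overlap more likely to be seen. Glycine with GGG at position 6 and GCA at position 5 was found in 8 cells, all CD73+ Treg. The labels tie no cell to a mouse, so how many mice carried each sequence is not known.

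The other 74 TRAJ7 nucleotide sequences were mostly seen in 1 cell, 63 of them, and 9 (12.2%) were found in 2 or more populations, against 10 of the 13 pair sequences (76.9%). A sequence with more cells has more chances to be seen in several populations, and one seen in 1 cell has none. Among sequences with 2 or more cells, 9 of 11 other sequences and 10 of 11 pair sequences were found in 2 or more populations. Of the 74, 25 were found in CD25+ TRP, 8 in CD73+ Treg and none in both. With so few cells per sequence, little overlap could be seen. The same counts for sequences of other TRAJ segments are not given here. In DP, 25 TRAJ7 cells held 25 different rearrangements and 22 different CDR3, while all 1266 DP cells held 1232 and 1092. In CD73+ Treg, 141 TRAJ7 cells held 22 rearrangements and 10 CDR3, while all 1057 cells held 784 and 639. TRAJ7 thus made up 2.01% of the different CDR3 of DP cells and 1.56% of those of CD73+ Treg cells.

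**Figure D2:**
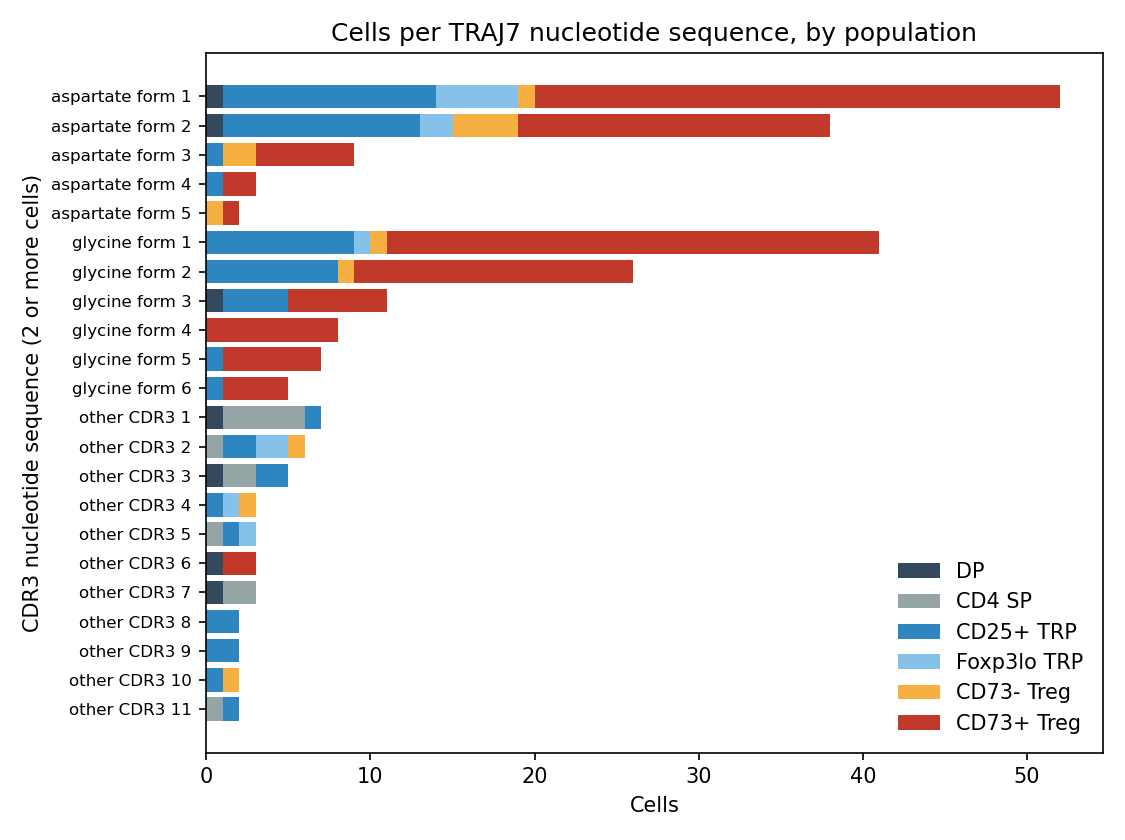
Cells per TRAJ7 CDR3 nucleotide sequence, for the 22 sequences with 2 or more cells, coloured by sorted population. Aspartate and glycine forms are numbered by cell count. The largest bars, of 52 and 41 cells, hold mostly CD73+ Treg and CD25+ TRP cells, and no pair sequence has a CD4 SP segment.

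Among the 8 CDR3 with at least 50 cells in these data, the pair was the one most bound to a single V copy. TRAV14D-3-DV8 was used by 97.1% of the aspartate form and 100% of the glycine form. In the other 6 the leading V copy reached 50.7% to 88.5%. With each rearrangement counted once, the pair used TRAV14D-3-DV8 in 13 of 15 (86.7%, 59.5 to 98.3). That count is not given here for the other 6, so the ranking holds for cells only. The aspartate form had 14.9 cells per rearrangement and the glycine form 12.5. The most frequent CDR3 of the data, joined to TRAJ13, had 13.4, and the remaining 5 had 4.64 to 7.43.

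The third TRAJ7 CDR3, CAADYSNNRLTL, had most of its cells in CD4 SP, the population with the most α chains read. It is 12 residues long, lacks the serine and alanine of the pair, and was found in 16 cells: 10 CD4 SP, 3 DP and 3 CD25+ TRP. It was found in 0 of the 2084 Foxp3lo TRP and Treg cells, a count that allows up to 0.177% there. Its share was 0.541% of CD4 SP cells (0.260 to 0.992), 0.237% of DP (0.0489 to 0.691) and 0.168% of CD25+ TRP (0.0347 to 0.491). These 3 intervals overlap. As shown above, its sequences need at most 1 added base. The 16 cells carried 4 nucleotide sequences. The first was found in 1 DP, 5 CD4 SP and 1 CD25+ TRP cell, and the next, joined with no added base, in 1 DP, 2 CD4 SP and 2 CD25+ TRP cells.

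CAASSDYSNNRLTL and CAASLDYSNNRLTL are the aspartate form with serine or leucine in place of alanine at position 5. CAASSDYSNNRLTL was found in 9 cells: 3 Foxp3lo TRP, 3 CD25+ TRP, 1 CD4 SP, 1 CD73- Treg and 1 CD73+ Treg. CAASLDYSNNRLTL was found in 8 cells: 4 CD25+ TRP, 2 CD73- Treg, 1 Foxp3lo TRP and 1 CD73+ Treg. Taken with all other residues at position 5, the aspartate form without alanine was found in 26 cells with 11 different residues: 9 CD25+ TRP, 5 Foxp3lo TRP, 4 CD73+ Treg, 3 CD73- Treg, 3 DP and 2 CD4 SP. In CD73+ Treg 60 of the 64 cells with the aspartate form had alanine, and in CD25+ TRP 27 of 36.

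CAASADSNNRLTL, which lacks the tyrosine, was found in 4 cells (1 CD4 SP, 2 CD25+ TRP and 1 Foxp3lo TRP), and CAASDYSNNRLTL, 1 residue shorter than the pair, in 3 (1 DP and 2 CD73+ Treg). The remaining 56 of the 63 TRAJ7 CDR3 had 1 or 2 cells each, 51 of them 1 cell.

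TRAJ7 chains of 14 residues, the length of the pair, were frequent in the Treg lineage and rare in CD4 SP. They made up 137 of 141 TRAJ7 chains in CD73+ Treg (97.2%), 63 of 80 in CD25+ TRP (78.8%), 10 of 25 in DP (40%, 21.1 to 61.3) and 4 of 26 in CD4 SP (15.4%, 4.36 to 34.9). With the pair left out, they were 12 of 29 in CD25+ TRP (41.4%, 23.5 to 61.1), 7 of 11 in Foxp3lo TRP (63.6%, 30.8 to 89.1), 5 of 9 in CD73+ Treg (55.6%, 21.2 to 86.3) and 7 of 22 in DP (31.8%, 13.9 to 54.9). These last intervals overlap one another and, Foxp3lo TRP included, that of CD4 SP. Among chains with other TRAJ segments, 35.5% of CD4 SP and 31.1% of CD73+ Treg chains had 14 residues.

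TRAJ7 chains had about as many added bases as other chains. Counting each rearrangement once, a mean of 3.17 bases matched neither germline segment in TRAJ7 chains and 3.30 in other chains. Per cell, the median was 3 in DP and 2 in CD4 SP and CD25+ TRP. In CD73+ Treg it was 4, the number in the 3 most frequent glycine sequences.

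TRAJ7 chains after the DP stage were joined to TRAV14D-3-DV8 far more often than other chains of the same cells. This copy (chromosome 14, 53078452 to 53079045, plus strand, a TCR V gene) lies 1132 kb before TRAJ7. It was the partner in 269 of 305 TRAJ7 cells (88.2%, 84.0 to 91.6) and in 22.6% of cells with another TRAJ (21.6 to 23.7). In DP it was used by 8 of 25 TRAJ7 cells (32%, 14.9 to 53.5) and by 16.6% of other cells (14.6 to 18.8). In CD4 SP it was used by 23 of 26 TRAJ7 cells (88.5%, 69.8 to 97.6) and by 455 of 1823 other cells (23.0 to 27.0%). The interval of CD4 SP lies above that of DP, although CD4 SP cells had none of the pair.

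In Treg the copy was used by 95.7% of TRAJ7 cells with CD73 (91.0 to 98.4) and by 14 of 14 without (76.8 to 100). In the progenitors it was used by 91.2% of CD25+ (82.8 to 96.4) and 84.2% of Foxp3lo TRAJ7 cells (60.4 to 96.6). With each rearrangement counted once within a population, TRAV14D-3-DV8 was still the partner of 17 of 20 TRAJ7 rearrangements in CD4 SP (62.1 to 96.8%), 29 of 36 in CD25+ TRP (64.0 to 91.8%) and 16 of 22 in CD73+ Treg (49.8 to 89.3%), against 320 of 1278, 344 of 1328 and 159 of 762 for other TRAJ. The intervals of the TRAJ7 rearrangements lie above those shares. Of the 3 DP cells with the pair, 1 used TRAV14D-3-DV8, and of the 132 in CD73+ Treg, 131 did. Outside the pair the share was 44.4% of the 9 CD73+ Treg cells (13.7 to 78.8).

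**Figure D3:**
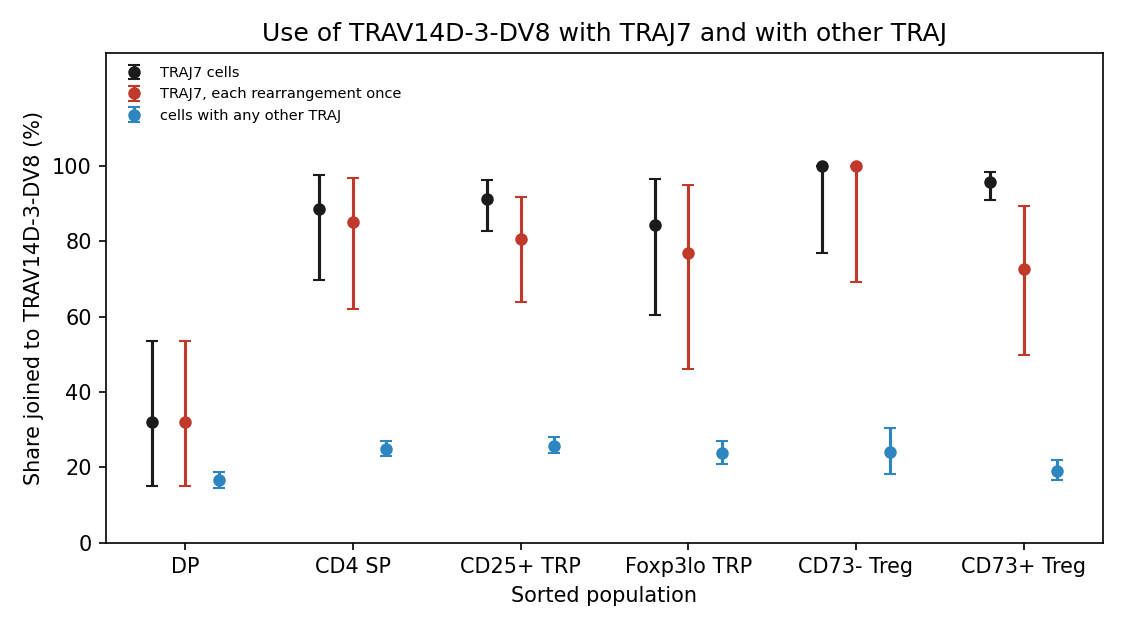
Share of chains joined to TRAV14D-3-DV8, in percent, for TRAJ7 cells (black), TRAJ7 rearrangements counted once each (red) and cells with any other TRAJ (blue), by sorted population; bars are exact 95% intervals for counting error. TRAJ7 cells lie at 32% in DP and at 84.2% or more in all later populations, while other chains lie between 16.6% and 25.8%.

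The deposited V call separates copies that are alike but not identical. Over the 270 V gene bases that end 9 bases into the CDR3, TRAV14D-3-DV8 differs from the other 8 annotated copies by 8 to 18 bases in GENCODE M21, 8 from TRAV14-3 and 9 from TRAV14N-3. Among the 36 TRAJ7 cells with another V gene, 8 used TRAV14N-3, 7 TRAV14N-1, 7 TRAV14-1, 6 TRAV14N-2, 3 TRAV14-2, 1 TRAV14-3 and 4 a V gene outside the family. The 4 outside the family were all DP cells, although the sort was for Vα2. Among cells with other TRAJ, 106 of 1241 in DP and 4 of 1823 in CD4 SP used a V gene outside the family. TRAV14D-1 and TRAV14D-2 were found in 0 of 305 TRAJ7 cells, which allows up to 1.20% each. TRAV14D-2 was used by 2.97% of cells with other TRAJ, and TRAV14D-1 by none of them.

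Read from the V side, TRAJ7 was joined to 135 of the 310 TRAV14D-3-DV8 chains of CD73+ Treg (43.5%, 38.0 to 49.3) and to 6 of the 747 chains with other V genes (0.803%, 0.295 to 1.74). The share within TRAV14D-3-DV8 chains was 21.9% in CD73- Treg (12.5 to 34.0), 14.3% in CD25+ TRP (11.3 to 17.6), 7.88% in Foxp3lo TRP (4.57 to 12.5), 4.81% in CD4 SP (3.07 to 7.13) and 3.74% in DP (1.63 to 7.23). Leaving the pair out of the TRAJ7 count gave 6.25% in CD73- Treg, 4.30% in CD25+ TRP, 4.81% in CD4 SP, 3.94% in Foxp3lo TRP, 3.27% in DP and 1.29% in CD73+ Treg (0.353 to 3.27). By this count CD73+ Treg had the lowest of these shares, which the choice of the pair by cell counts favours. The pair also stays in the totals, where it was 131 of the 310 CD73+ Treg chains, and this lowers the share further. The interval of CD73+ Treg overlaps that of each other population. Among chains of other V genes, TRAJ7 made up 1.62% in DP (0.944 to 2.57) and 0.219% in CD4 SP (0.0451 to 0.638), with intervals apart.

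Most segments near TRAJ7 did not show this partner use. Of the 41 TRAJ segments with at least 20 cells, 3 (7.32%) were joined to TRAV14D-3-DV8 in at least 50% of their cells: TRAJ7, its near neighbour TRAJ5 (63.1% of 130 cells) and TRAJ17 (55.1% of 176 cells). TRAJ7 had the highest share by cells and, at 62.4%, by rearrangements, where TRAJ5 was close at 56.0%. Outside the pair, 45 of 78 TRAJ7 rearrangements used this copy (57.7%, 46.0 to 68.8). The median segment stood at 20.4% of cells and 23.6% of rearrangements. TRAJ6, which lies between TRAJ7 and TRAJ5, stood at 20.3% of 128 cells and TRAJ9, on the other side, at 20.9% of 191 cells. TRAJ4 stood at 25.3%, TRAJ11 at 31.7%, TRAJ2 at 36.9% and TRAJ12 at 12.1%. In DP alone TRAJ7 did not have the highest share: it was joined to TRAV14D-3-DV8 in 32% of 25 cells, TRAJ6 in 32% of 25, TRAJ9 in 36.7% of 30 and TRAJ5 in 42.9% of 21.

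The neighbours differed among themselves in their use over the populations. TRAJ5 was used by 2.87% of CD4 SP and 0.757% of CD73+ Treg cells, and TRAJ6 by 2.27% and 1.42%. TRAJ9 was used by 3.03% and 3.50%. Over the 6 populations, the Pearson correlation with TRAJ7 of log2(share in percent + 0.1) was highest for TRAJ22 (0.80), TRAJ30 (0.76) and TRAJ15 (0.74), and among the neighbours it ranged from 0.46 for TRAJ9 and 0.27 for TRAJ4 to -0.87 for TRAJ5. These are descriptions over 6 points from shared libraries, and the shares of all segments in a population add up to the same total. TRAJ22, the most alike, ranged only from 3.36% of Foxp3lo TRP to 7.00% of CD73+ Treg.

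Beside each ratio of TRAJ7 shares stands the percentage of the 41 segments that were at least 2-fold higher in the same comparison. Against CD4 SP, the TRAJ7 share was 3.19 times as high in CD25+ TRP (7.32% of segments), 1.68 times in Foxp3lo TRP (2.44%) and 9.49 times in CD73+ Treg (12.2%). CD73- Treg had 2.66 times the share of Foxp3lo TRP (24.4%) and 1.40 times that of CD25+ TRP (14.6%). CD73+ Treg had 2.97 times the share of CD25+ TRP (12.2%) and 2.12 times that of CD73- Treg (12.2%). The share in CD4 SP was 0.712 times that in DP (9.76%). These ratios include the values for which the segment was chosen, so nothing is read from them.

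The pair also lay in particular expression clusters of the authors, numbered here since the rows are unnamed. Clusters were made by the authors from expression, and whether TCR genes took part is not given in the sources used here. In CD25+ TRP, 40 of 810 cells in clusters 5 and 7 carried the pair (4.94%, 3.55 to 6.66), and 0 of 582 in clusters 1 and 2, which allows up to 0.632%. Clusters 1 and 2 held 1420 of the 1849 CD4 SP cells. TRAJ7 chains outside the pair were present in those clusters, in 10 CD25+ TRP cells and 18 CD4 SP cells. Cluster 12 held the pair in 8 of 87 CD25+ TRP cells (9.20%, 4.05 to 17.3).

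In CD73+ Treg, 35.1% of the 114 cells in cluster 7 carried the pair (26.4 to 44.6), 18.2% of the 368 in cluster 3 (14.4 to 22.5) and 1 of the 234 in cluster 9 (0.427%, 0.0108 to 2.36). The 3 intervals lie apart. Cluster 7 was also the one in which 21 of 357 CD25+ TRP cells (5.88%, 3.68 to 8.85) carried the pair, and within that cluster the intervals of CD73+ Treg and CD25+ TRP lie apart. In CD73- Treg, cluster 3 held the pair in 2 of 86 cells (2.33%, 0.283 to 8.15), below the interval of CD73+ Treg cells in the same cluster. In cluster 7 it was found in 3 of 29 CD73- Treg cells (10.3%, 2.19 to 27.4), which overlaps the interval of CD73+ Treg there. In cluster 0, the pair was found in 4 of 107 CD73+ Treg cells and 2 of 440 Foxp3lo TRP cells. Of the 95 CD4 SP cells in clusters 5, 7 and 12, 0 carried TRAJ7, which allows up to 3.81%.

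**Figure D4:**
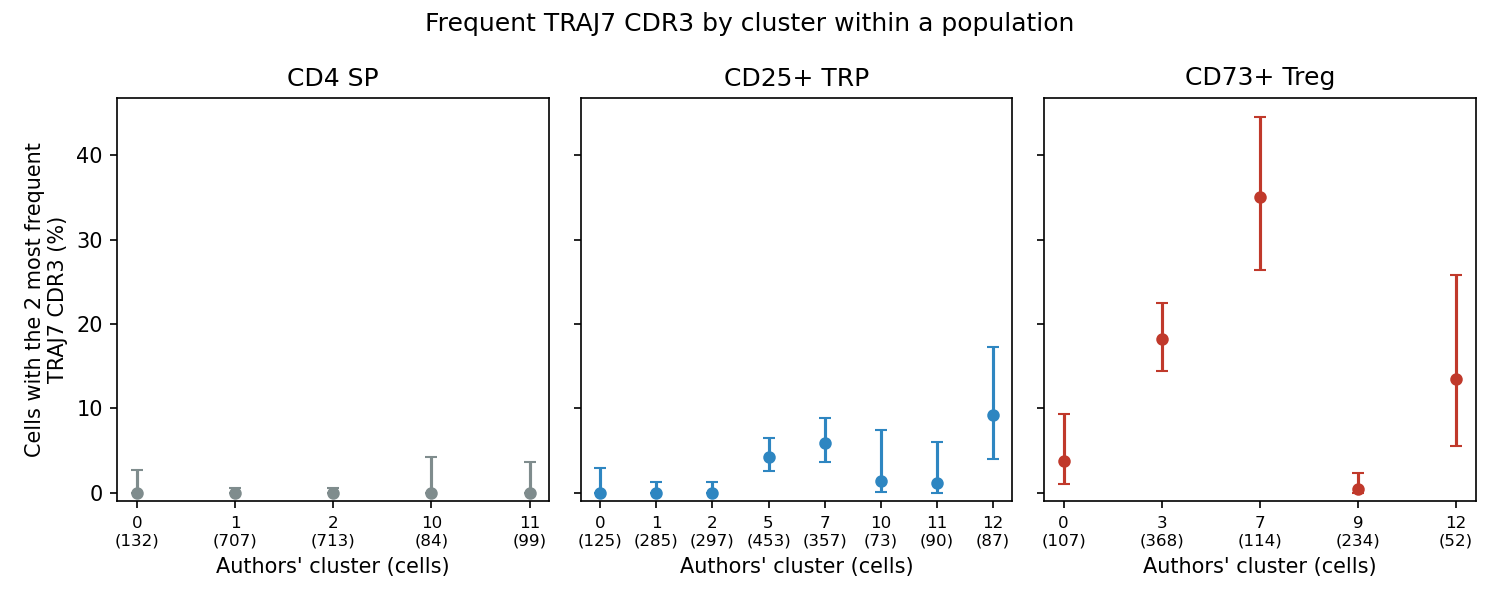
Share of cells with either of the 2 most frequent TRAJ7 CDR3, in percent, by cluster number within CD4 SP, CD25+ TRP and CD73+ Treg, for clusters with at least 50 cells (cell number in parentheses); bars are exact 95% intervals for counting error. The highest points are clusters 7 (35.1%) and 3 (18.2%) of CD73+ Treg, and clusters 1 and 2 stand at 0 in CD25+ TRP.

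Cluster 8 of DP had the highest TRAJ7 share among the 3 large DP clusters, with 10 of 214 cells (4.67%, 2.26 to 8.43), against 6 of 349 in cluster 4 (1.72%, 0.633 to 3.70) and 8 of 580 in cluster 6 (1.38%, 0.597 to 2.70). These intervals overlap. Of the 3 DP cells with the pair, 2 were in cluster 8.

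TRAJ7 cells had somewhat more α UMIs than other cells in the Treg lineage, and they had more UMIs in all. In CD73+ Treg the α contig had a median of 23 UMIs in TRAJ7 cells (quartiles 17 and 32, range 3 to 70) and 18 in other cells (13 and 26). Median total UMIs were 3938 and 2810, and α UMIs per 1000 total UMIs came to 6.01 and 6.41. In CD25+ TRP the α medians were 27 and 22, the totals 4140 and 3186, and the ratios 6.38 and 6.62. In CD73- Treg the 14 TRAJ7 cells had a median of 37.5 α UMIs (quartiles 26 and 40.5) and other cells 16 (12 and 23). The totals were 5277 and 2710, and the ratios 5.90 and 6.20. In Foxp3lo TRP the ratio was higher in TRAJ7 cells: the α medians were 16 and 14, the totals 2367 and 2138, and the ratios 7.15 and 6.48.

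In DP the α median was 14 in both, and in CD4 SP it was 17 for TRAJ7 and 19 for other chains. Per 1000 total UMIs these came to 10.3 and 8.50 in DP, with totals of 1318 and 1571. In CD4 SP they came to 6.09 and 6.80, with totals of 2929 and 2730. Within cluster 7 of CD73+ Treg the pair had a median of 31 α UMIs and other TRAJ 29, with 4945 and 4918 UMIs in total. Within cluster 3 the medians were 21 and 17, with totals of 3637 and 2791. With reads in place of UMIs the order turned in CD25+ TRP, where the α contig had a median of 813 reads in TRAJ7 cells and 900 in others. The part of cell size or depth in these differences was not tested.

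**Figure D5:**
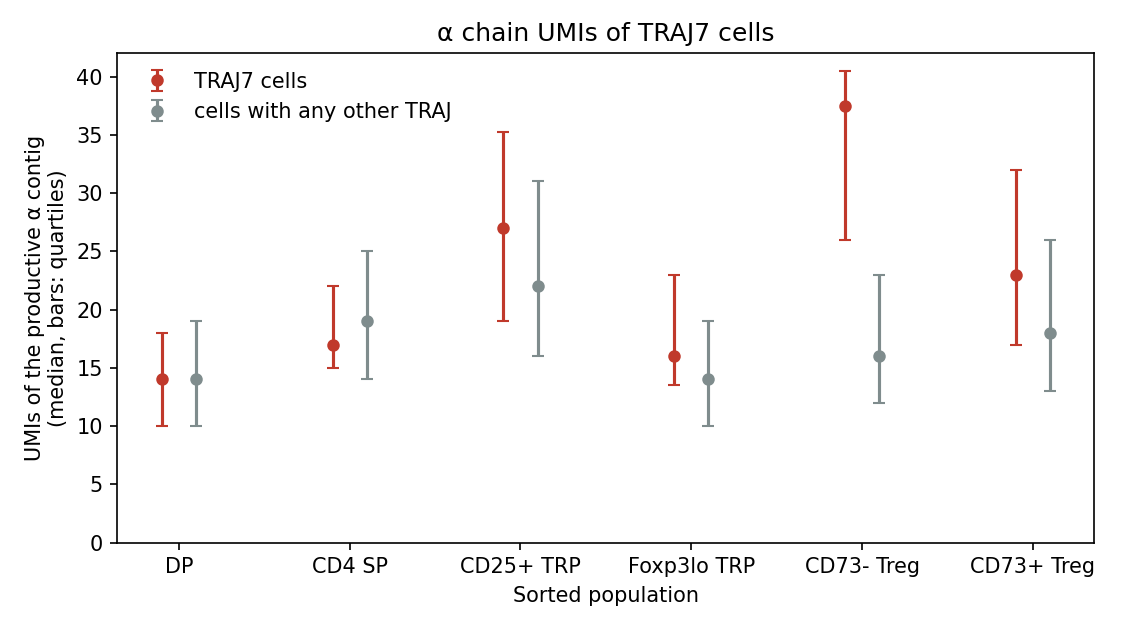
UMIs of the productive α contig per cell, median with quartiles as bars, for TRAJ7 cells (red) and cells with any other TRAJ (grey), by sorted population. The quartile ranges overlap everywhere except in CD73- Treg, where the 14 TRAJ7 cells have a median of 37.5 and the others 16.

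A productive β contig was assembled for 58 of the 305 TRAJ7 cells, though the library was enriched for α chains. In 57 it was TRBV19, the β gene of most cells with a β contig, and in 1 another. Among cells with other TRAJ, 885 of 6677 had a β contig, and 94 had one other than TRBV19.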

How the data were processed

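Expression, hashtag and α-enriched TCR libraries came from the same cells, made with the 10x Genomics 5' v2 kit, per the labels' protocols. Cell Ranger 3.1.0 and Seurat 3.1.1, with the builds GRCm38 and mm10, are named in the submitters' processing notes. Their settings, cell filtering and doublet treatment: not given in the sources used here. Deposited by the authors were UMI counts for 12208 cells (34190869 UMIs, rows without gene names), a table with each cell's hashtag class and cluster number (a label coded by the authors, other than a measurement), and UMI counts and, as a further number, reads for 21598 contigs in 12771 barcodes. Of these barcodes, 7379 are in the matrix and 5392 are not. The hashtag class named Treg was read as CD73- Treg.

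The metadata rows carry no barcode and were joined to the matrix header by order. Clonotypes then matched the contig table in 6982 of 6982 cells. The authors' α table held the same CDR3 in 6982 of 6982 and the same V and J gene in 6981. Cells with 2 productive α chains (330) were left out, and no doublet caller was run.

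Each CDR3 was split against GENCODE M21 germline sequences, V first, which was possible for 305 of 305 TRAJ7 cells and 6968 of 6982 in all. In simulated TRAJ7 joins with TRAV14D-3-DV8 (2 genes), 4 added bases came out as a mean of 3.44 and never as more, since added bases can match germline by chance. Analyses used Python 3.11.15, pandas 2.3.3 and SciPy 1.17.1. The limit printed for a count of 0 is the upper end of its exact 95% interval. In the 2-fold comparison of TRAJ segments, a share of 0 was set to that of 3 cells.

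TRAJ7 and the 2 CDR3 called the pair were chosen with earlier results of these data known. The text names TRAJ7 CDR3 with at least 3 cells, nucleotide sequences with at least 2, the 3 TRAJ segments most correlated with TRAJ7, the fixed neighbours TRAJ2 to TRAJ12 and all TRAV14 copies. TRAJ17 and the TRAJ13 comparison sequence were chosen after their values were seen. The planned cell type markers could not be used. The alternatives tried were other rules on cells and contigs, and counting each CDR3 or rearrangement once.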

Additional observations from a re-analysis of the deposited data

Results flagged for a closer look

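TRAJ7 was also present in barcodes that the comparisons do not use. Among the 2747 barcodes outside the expression matrix with exactly 1 productive α chain, 161 carried TRAJ7 (5.86%, 5.01 to 6.81). These barcodes have no hashtag class here, so no population can be given. The pair made up 108 of them, 59 with CAASADYSNNRLTL and 49 with CAASAGYSNNRLTL, and 143 of the 161 used TRAV14D-3-DV8. Another 2620 barcodes outside the matrix had 2 productive α chains.

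In the matrix, 21 of the 330 cells with 2 productive α chains had TRAJ7 as 1 of them (6.36%), and 12 of these TRAJ7 chains were of the pair. The TRAJ7 contig had fewer UMIs than its companion in 15 of the 21 cells and in 10 of the 12 with the pair. Its UMIs ranged from 4 to 71, with a median of 8. The pair was found in 5 such cells of CD25+ TRP, 1 of CD73- Treg and 6 of CD73+ Treg, the populations in which it was most frequent among cells with 1 chain. The part of doublets or of free RNA was not tested.

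There were 15 nonproductive TRAJ7 contigs, 4 of them in barcodes of the matrix. Of the 15, 2 carried a CDR3 of the pair.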

How the results depend on the processing

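No paired analysis was possible because each population is 1 sorted sample and the 3 GEO samples are library types of the same cells. Without cluster 9, the CD73+ Treg share was 16.8% for TRAJ7 and 15.9% for the pair, since that cluster held 3 TRAJ7 cells, 1 of them of the pair. Counting each different CDR3 once gave TRAJ7 shares of 1.56% in CD73+ Treg, 2.69% in CD73- Treg and 2.07% in CD25+ TRP. Counting each rearrangement once gave 4.88% in CD73- Treg, 2.81% in CD73+ Treg and 2.64% in CD25+ TRP. Under both counts CD73+ Treg was below CD73- Treg, where the shares rest on 5 TRAJ7 CDR3 and 10 TRAJ7 rearrangements. TRAV14D-3-DV8 was used by 62.4% of TRAJ7 rearrangements counted once. The log2 ratio of the median α UMIs of TRAJ7 to other cells was -0.16 in CD4 SP, 0.30 in CD25+ TRP and 1.23 in CD73- Treg. With reads in place of UMIs it reversed in CD4 SP (0.067) and CD25+ TRP (-0.15) and came to 0.44 in CD73- Treg. The cause was not tested. Without the top 5% of cells by UMIs, the pair went from 4.48% (10 of 223) to 2.86% (6 of 210) of CD73- Treg cells and TRAJ7 from 6.28% to 4.76%, and the other populations moved by less than 1.5 times. The shares of TRAJ7 and of the pair stayed within their main intervals with contigs of at least 2 UMIs, with TRAV14 chains only, with all cells that have a productive α chain, and without cells with another β chain. The 223 CD73- Treg cells and the 25 and 26 TRAJ7 cells of DP and CD4 SP limit the precision.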
